A study of Rattus norvegicus with 9 samples.

Results

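Ionotropic glutamate receptors carry most fast excitatory transmission in the spinal cord, and 10 of their subunit genes were followed here, out of 34890 loci listed. They were taken from the expression table by gene name. Gria1, Gria2, Gria3 and Gria4 encode the AMPA receptor subunits GluA1 to GluA4. Grin1 encodes the obligatory NMDA receptor subunit, Grin2a, Grin2b, Grin2c and Grin2d encode the glutamate-binding GluN2 subunits, and Grin3a encodes a glycine-binding GluN3 subunit. All 10 names were found, each at 1 Ensembl gene. The tissue was the ipsilateral L3-L6 spinal cord of male Sprague Dawley rats without genetic modification, whose age the labels do not give. The JA group (3 rats) had sham surgery, in which the sciatic nerve was exposed but not cut, and received saline. The SNI group (3 rats) had spared nerve injury, in which 2 branches of the sciatic nerve, the tibial and the common peroneal, were tied and cut and the sural branch was left, and received saline. The PLM group (3 rats) had the same injury and received the middle dose of the combination by gavage, 20.65 mg/ml paeoniflorin with 3.98 mg/ml liquiritin, both plant glycosides. The labels of the 3 PLM samples give the liquiritin as 3.98, 3.99 and 3.100 mg/ml, and the first of these is the one in the study's methods. The 3 libraries of a group are labelled as biological replicates, and the labels name no finer dissection than the ipsilateral segment.

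An AMPA receptor is a tetramer of GluA subunits, and its calcium permeability depends on whether edited GluA2 is present. An NMDA receptor joins GluN1 to GluN2 or GluN3 subunits, and the GluN2 subunit sets its deactivation time and its sensitivity to magnesium block. In the dorsal horn these receptors act downstream of primary afferents and are classically tied to central sensitization after nerve injury. Most of these genes are known mainly as neuronal genes. Grin2c is known best from cerebellar granule cells, and is also known from astrocytes.

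The values were TPM, a measure of transcript abundance corrected for transcript length that adds up to the same total in all libraries, so that levels can be compared between genes. TPM keeps no read depth, and the counting error behind each value is unknown. The labelled tissue was checked with marker genes. The lumbar position gene Hoxc10 was at 31.0 to 46.9 TPM and Slc6a5, the glycine transporter of spinal inhibitory neurons, at 25.8 to 48.9 TPM, whereas Gabra6 and Emx1, markers of cerebellum and forebrain, did not exceed 0.02 TPM in any library. Neurod6, another forebrain marker, was at 1.64 to 2.97 TPM in the 9 libraries. The libraries also differed in other respects. The summed TPM of 6 Schwann cell markers overlapped between groups and ran from 125.5 to 7897 in JA, from 579.7 to 4495 in SNI and from 276.9 to 3308 in PLM. The 13 mitochondrial protein genes took 25.3% to 32.8% of TPM in JA, 23.7% to 26.1% in SNI and 31.3% to 32.8% in PLM, so the SNI and PLM libraries did not overlap. Each contrast is therefore given on TPM as deposited and after each library was centred on its median log2(TPM + 1). Across all loci tested the median log2 fold change as deposited was -0.21 for PLM against SNI, 0.12 for SNI against JA and -0.10 for PLM against JA.

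The 10 genes were expressed at very different levels, and the upper part of the order was the same in nearly every library. Grin1 was the highest, with a mean of 60.2 TPM over the 9 libraries, and Gria4 followed with 32.6 TPM. Gria1 (12.4 TPM), Gria2 (10.5 TPM) and Gria3 (9.47 TPM) lay close together. The gap between Gria1 and Gria2 held in 8 of the 9 libraries, and Grin1 stood above Gria4, Gria4 above Gria1 and Gria2 above Gria3 in 9 of 9. Grin2c (5.39 TPM), Grin3a (4.33 TPM) and Grin2d (4.10 TPM) formed the next tier. Gria3 exceeded Grin2c in 9 of 9 libraries, but the order within this tier differed between groups. Grin2c was above Grin3a in all 6 JA and SNI libraries and below it in all 3 PLM libraries, while Grin3a exceeded Grin2d in 6 of 9 libraries. Grin2a (0.463 TPM) and Grin2b (0.427 TPM) were below 1 TPM in every library, and Grin2a was above Grin2b in 5 of 9.

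The levels of the AMPA receptor genes in single libraries of the 3 groups were as follows. Gria1 was at 13.9, 10.9 and 11.8 TPM in JA, at 16.8, 11.7 and 13.5 TPM in SNI and at 10.8, 11.2 and 11.1 TPM in PLM. Gria2, whose edited product makes the receptor impermeable to calcium, was at 11.5, 7.80 and 9.17 TPM in JA, at 13.1, 12.4 and 10.71 TPM in SNI and at 8.83, 10.66 and 10.6 TPM in PLM. The PLM values of both genes lay below every SNI value, by a narrow margin for Gria2, and within or close to the JA range. Gria3 was at 10.8, 6.34 and 7.62 TPM in JA, at 12.96, 10.7 and 10.1 TPM in SNI and at 8.71, 8.13 and 9.92 TPM in PLM. Its PLM values also lay below every SNI value, by a narrow margin, and within the JA range. Gria4, the most abundant AMPA receptor transcript of this tissue, was at 34.1, 21.4 and 29.7 TPM in JA, at 39.7, 35.1 and 34.9 TPM in SNI and at 30.6, 32.5 and 35.1 TPM in PLM. For Gria4 the PLM libraries overlapped SNI, and every SNI library was above every JA library.

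Among the NMDA receptor genes, Grin1 was at 71.5, 47.3 and 50.2 TPM in JA, at 82.3, 58.8 and 70.1 TPM in SNI and at 52.7, 55.2 and 53.8 TPM in PLM. Grin2d, which encodes the GluN2 subunit with the slowest deactivation, was at 5.03, 3.95 and 3.32 TPM in JA, at 5.22, 4.10 and 4.83 TPM in SNI and at 3.32, 3.38 and 3.72 TPM in PLM. Grin3a was at 4.93, 3.75 and 3.44 TPM in JA, at 6.06, 4.63 and 4.86 TPM in SNI and at 3.76, 3.84 and 3.68 TPM in PLM. In these 3 genes the PLM libraries sat close together, below all SNI libraries and inside the JA range. Grin2c (ENSRNOG00000003280) had a different pattern. It was at 7.82, 5.33 and 3.82 TPM in JA, at 8.51, 8.45 and 6.19 TPM in SNI and at 3.16, 2.69 and 2.55 TPM in PLM, so that every PLM library was below every SNI and every JA library. The mean of Grin2c was 2.80 ± 0.320 TPM in the PLM group, compared with 7.72 ± 1.32 TPM in the SNI group and 5.66 ± 2.02 TPM in the JA group (mean ± SD of 3 rats).

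The remaining GluN2 genes were near the lower end of what the table resolves. Grin2a was at 0.72, 0.47 and 0.27 TPM in JA, at 0.82, 0.55 and 0.47 TPM in SNI and at 0.33, 0.20 and 0.34 TPM in PLM, with no PLM library as high as the lowest SNI library. Grin2b was at 0.38, 0.43 and 0.30 TPM in JA, at 0.39, 0.51 and 0.46 TPM in SNI and at 0.38, 0.40 and 0.59 TPM in PLM, with all groups overlapping. Grin2a and Grin2b did not reach a mean of 1 TPM in any pair of groups and were left out of the fits. The tests below therefore cover 8 of the 10 genes. In a fit without that filter, PLM against SNI gave -0.32 for Grin2a (adjusted p = 0.115 by limma) and 0.0012 for Grin2b (adjusted p = 0.998) on the log2(TPM + 1) scale. Near 0 TPM the centring shift alone can set the order of the libraries, so the order of their centred values was not read.

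**Figure D1:**
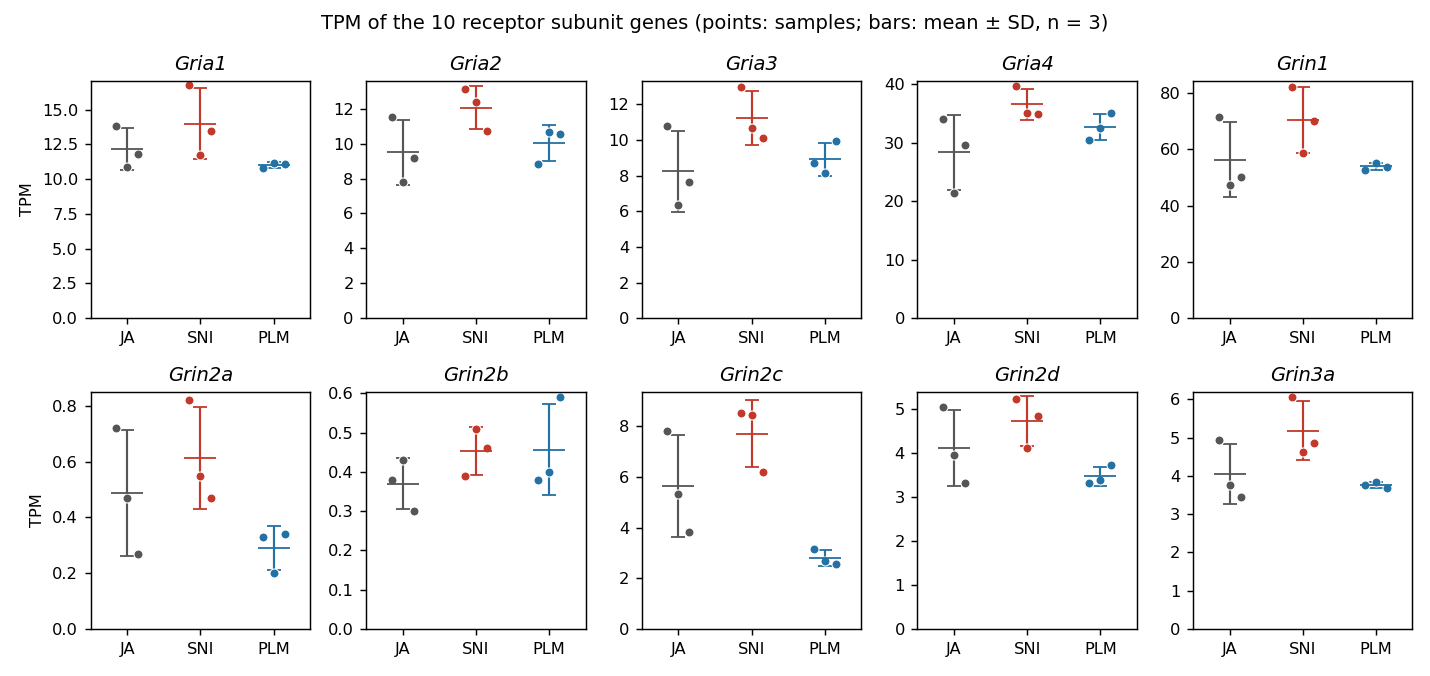
TPM (vertical axis, linear and starting at 0, scaled separately for each gene) of the 10 receptor subunit genes in the JA, SNI and PLM groups. Each point is 1 library and the bars are the mean and SD of 3 libraries. Grin2c in PLM, at 2.55 to 3.16 TPM, lies below all JA and SNI libraries, whereas Gria4 in PLM overlaps SNI.

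The comparison of PLM with SNI asks what the drug combination changed in injured rats. Grin2c fell, with a log2 fold change of -1.19 (SE 0.14, 95% interval -1.53 to -0.85) and an adjusted p of 0.00906 by limma with Benjamini-Hochberg adjustment over 15474 loci. After median-centring its log2 fold change was -0.94 (95% interval -1.29 to -0.59) and the adjusted p of 0.0560 no longer passed 0.05, as 0.685% of all loci did in the lower direction. Because this is bulk tissue, fewer cells of the type that expresses Grin2c and less Grin2c RNA per cell cannot be told apart. Grin2c was 1 of the 8 tested genes that passed, against 13.6% of all loci tested that passed as lower, so its call was 1 of 2110 in that direction. At the thresholds in the study's methods, an unadjusted p under 0.05 with a log2 fold change beyond 1 in either direction, Grin2c also passed, as did 1.42% of all loci in the lower direction. Its fold change stood at percentile 1.43 of all loci, counted from the lowest.

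None of the other 7 tested subunit genes passed in PLM against SNI with limma. Their log2 fold changes as deposited were -0.37 for Grin3a, -0.37 for Grin1, -0.35 for Grin2d, -0.31 for Gria1, -0.30 for Gria3, -0.25 for Gria2 and -0.16 for Gria4, with adjusted p values from 0.0714 to 0.209. Counting Grin2c, 6 of the 8 genes had an unadjusted p under 0.05 and were lower, against 35.8% of all loci. In 7 of the 8 no PLM library reached the lowest SNI library, which held for 41.9% of all loci. The median over the 8 genes was -0.33, beside -0.21 over all loci. After median-centring the 7 genes lay between -0.12 and 0.09, with Gria2 at 0.0016 and Gria4 at 0.09 now above 0, and adjusted p values from 0.510 to 0.994. The 95% intervals of these 7 centred values ran from -0.40 to 0.24, and the interval of Grin2c lay wholly below them. The centred PLM and SNI libraries then overlapped for all 7, and the 1 tested gene without overlap was Grin2c, against 9.73% of all loci that were lower without overlap. A single library decided 1 call in this set, since Grin1 passed at -0.49 with an adjusted p of 0.0400 by limma when SNI replicate 2 was left out.

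The comparison of SNI with JA asks what the injury changed under saline. All 8 tested genes had a log2 fold change above 0, from 0.17 for Grin2d and 0.18 for Gria1 to 0.42 for Grin2c and 0.43 for Gria3. Gria4 was at 0.38, Grin1 and Gria2 both at 0.33, and Grin3a at 0.30. None passed with limma, with adjusted p values from 0.614 to 0.683, where 0.0% of all loci passed as higher, and 0 of the 8 had an unadjusted p under 0.05, where 6.11% of all loci did in the higher direction. The same was true of all 15557 loci after adjustment, where 0 passed by limma, while 154 were lower and 950 higher at an unadjusted p under 0.05. The median of the 8 genes was 0.33 as deposited and 0.21 after centring, beside 0.12 and -0.01 over all loci. The signs depended on scaling. When the libraries were centred on 12 neuronal marker genes instead, 6 of the 8 genes turned below 0. Grin2d was then at -0.24 and Gria1 at -0.23, while Gria3 and Grin2c stayed at 0.01. On that scale the median over all loci was itself -0.30, and all 8 genes stayed above it. Gria4 was the 1 gene whose SNI libraries all exceeded its JA libraries, as deposited and after centring, against 12.1% and 4.0% of all loci.

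The comparison of PLM with JA asks how treated injured rats stood relative to sham rats. Grin2c had a log2 fold change of -0.77 (95% interval -1.30 to -0.23), with an unadjusted p of 0.0118 and an adjusted p of 0.346 by limma, so it did not pass, and 0.013% of all loci did as lower. It was the 1 subunit gene with an unadjusted p under 0.05, against 10.5% of all loci that were lower. After centring it was at -0.64 (adjusted p = 0.494 by limma). Its PLM and JA libraries did not overlap on either scale, which held in the lower direction for 15.7% of all loci as deposited and 6.93% after centring. The other 7 genes lay between -0.18 for Grin2d and 0.22 for Gria4 as deposited, with adjusted p values from 0.647 to 0.941, and between -0.05 and 0.34 after centring. Gria4 in PLM was above all JA libraries only after centring, a pattern shared by 9.51% of all loci. Of 15349 loci tested, 2 passed as lower and 1 as higher, and no subunit gene was among them. Each pair of contrasts shares a group, so the 3 are not independent of each other.

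**Figure D2:**
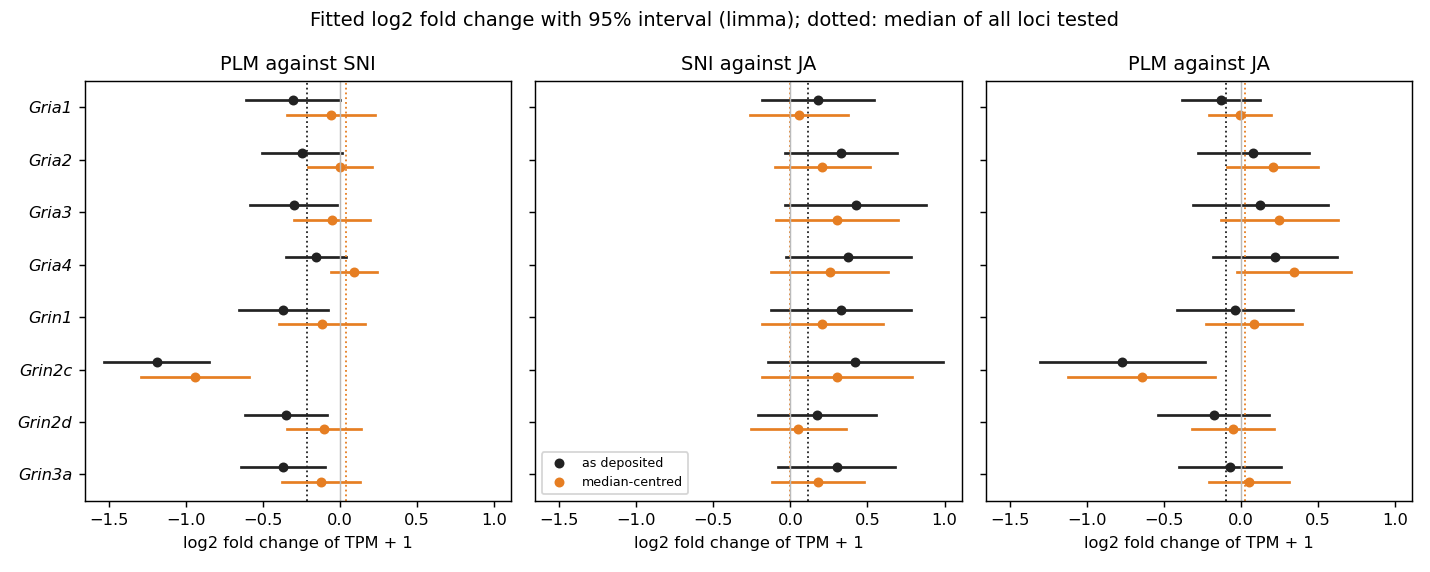
Fitted log2 fold change of TPM + 1 (horizontal axis) of the 8 tested subunit genes in the 3 contrasts, with 95% intervals from limma over 3 libraries a group. Black is TPM as deposited, orange is median-centred, and the dotted lines are the medians of all loci tested on each scale. Grin2c in PLM against SNI, at -1.19 and -0.94, lies apart from the other 7 genes.

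Shares of transcripts within a library do not depend on how that library is scaled. Of the summed TPM of Gria1 to Gria4, Gria4 made up 52.2% ± 0.366 in PLM, 49.6% ± 1.32 in SNI and 48.5% ± 2.41 in JA (mean ± SD of 3 libraries, no test). Each PLM library was at 51.9% to 52.6%, above the 46.1% to 50.9% of JA and SNI libraries. Gria1 took 17.6% ± 0.857, 18.9% ± 1.85 and 21.1% ± 2.02 in the same order, with overlapping libraries in SNI and PLM, while every PLM library (16.7% to 18.3%) was below every JA library (19.7% to 23.5%). Gria2 took 16.0%, 16.4% and 16.3% and Gria3 14.2%, 15.2% and 14.0%, both with overlap among all groups. The summed level of the 4 AMPA receptor genes was 58.3 ± 11.9 TPM in JA, 73.9 ± 7.50 TPM in SNI and 62.7 ± 3.89 TPM in PLM.

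Among GluN2 transcripts the PLM libraries had a lower share of Grin2c and a higher share of Grin2d (a description, with no test). Grin2c made up 56.1%, 52.4% and 49.5% of the summed Grin2a to Grin2d TPM in JA, 57.0%, 62.1% and 51.8% in SNI and 43.9%, 40.3% and 35.4% in PLM. Grin2d made up 36.1%, 38.8% and 43.1% in JA, 34.9%, 30.1% and 40.4% in SNI and 46.2%, 50.7% and 51.7% in PLM. For both genes every PLM library lay outside the range of the JA and SNI libraries, and in PLM Grin2d rather than Grin2c was the most abundant GluN2 transcript in 3 of 3 libraries. The mean TPM of Grin2d was itself lowest in PLM, at 3.47 ± 0.216 TPM, against 4.72 ± 0.569 TPM in SNI and 4.10 ± 0.865 TPM in JA. The low gene Grin2b held 3.61% ± 0.788 in JA, 3.40% ± 0.688 in SNI and 6.49% ± 1.52 in PLM, and Grin2a held 4.43%, 4.49% and 4.10%. The summed GluN2 level was 7.02 ± 0.303 TPM in PLM, against 13.5 ± 1.498 TPM in SNI and 10.6 ± 3.14 TPM in JA. Grin1 transcripts outnumbered GluN2 transcripts 5.43 ± 0.964 to 1 in JA, 5.23 ± 0.809 to 1 in SNI and 7.70 ± 0.513 to 1 in PLM, and the PLM libraries (7.33 to 8.28) were all above the rest (4.32 to 6.50). Grin2c is part of the GluN2 sum, so this ratio and the shares of the other GluN2 genes are not separate from its own lower level.

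**Figure D3:**
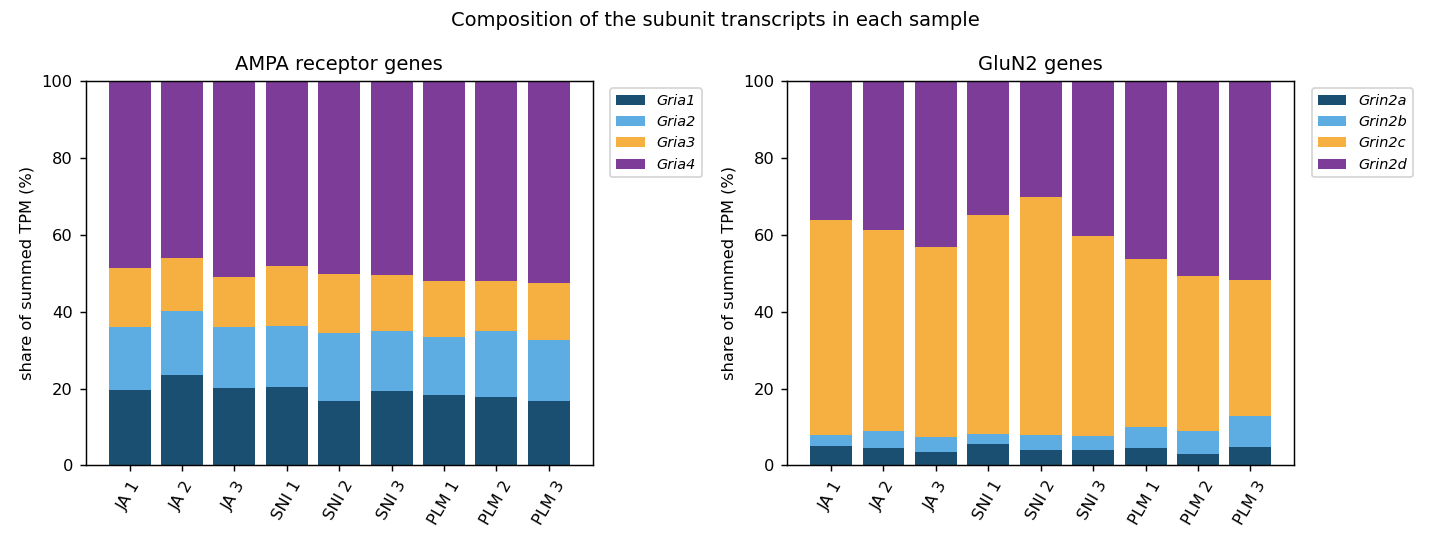
Share of summed TPM (%, vertical axis) taken by each AMPA receptor gene (left) and each GluN2 gene (right), 1 bar per library, labelled by group and replicate. The Grin2c segment is 35.4% to 43.9% in PLM and 49.5% to 62.1% in JA and SNI, and the Gria4 share is 51.9% to 52.6% in PLM against 46.1% to 50.9% in JA and SNI.

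Grin2c was then placed against the genes it moved with. Relative to the mean log2(TPM + 1) of the 7 other tested subunit genes in the same library, Grin2c stood at -0.80, -0.80 and -1.30 in JA, at -0.89, -0.60 and -1.05 in SNI and at -1.55, -1.78 and -1.89 in PLM. The PLM libraries did not overlap those of JA or SNI, and the mean difference between PLM and SNI was -0.89 (a description, with no test). Relative to the 12 neuronal markers, Grin2c was 1.01 lower on the log2 scale in PLM than in SNI and 1.00 lower than in JA, again without overlap. The exact two-sided permutation test gave p = 0.1 for both, the smallest value that 3 against 3 allows. Between SNI and JA the same measure differed by 0.01 (exact permutation p = 0.9).

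Relative to 12 astrocyte markers, Grin2c kept within a narrow range. Its log2(TPM + 1) minus the mean of these markers was -3.08 ± 0.04 in the PLM group, -3.22 ± 0.09 in the SNI group and -3.20 ± 0.19 in the JA group (mean ± SD of 3 libraries), and all 9 libraries lay between -3.33 and -2.99. PLM was 0.15 above SNI on this measure (exact permutation p = 0.1, the smallest possible) with a pseudocount of 1 and 0.03 below it with a pseudocount of 0.1 (p = 0.7 by the same exact test). SNI and JA differed by -0.02 (exact permutation p = 0.9) and PLM and JA by 0.13 (exact permutation p = 0.4). The astrocyte markers themselves were lower in PLM than in SNI for 12 of 12 genes, 11 passing as deposited (median log2 fold change -1.35) and 9 after centring (median -1.11). Among them were Gfap, the astrocyte intermediate filament (-1.28 as deposited), Slc1a2, the main glutamate transporter (-1.95), and Gja1, connexin 43 (-1.51). Their summed TPM was 1881 to 3684 in JA, 3204 to 3541 in SNI and 1539 to 1867 in PLM, and none of the 12 was at 0 in any group. By comparison, 0 of 12 neuronal markers passed by limma in PLM against SNI, with 2 lower at an unadjusted p under 0.05 as deposited and 2 higher after centring, and a median log2 fold change of -0.17 as deposited and 0.08 after centring. Markers of other cells also separated the PLM from the SNI libraries. The summed TPM of 4 blood genes was 7987 to 11176 in PLM and 4117 to 7265 in SNI, and that of 10 oligodendrocyte markers was 50204 to 51283 in PLM and 46463 to 48690 in SNI. The sum was lower in PLM for 7 oligodendrocyte precursor markers (312.3 to 357.4 against 387.6 to 404.7 TPM) and for 9 markers of spinal neuron classes and position (243.9 to 264.0 against 274.2 to 344.2 TPM). After centring, the mean log2(TPM + 1) of the blood, oligodendrocyte, microglia and endothelium markers was higher in every PLM than in every SNI library, while that of the precursor and spinal neuron markers overlapped. None of the blood, oligodendrocyte, endothelium, precursor or spinal neuron markers passed by limma. Of 9 microglia markers 1 passed as lower as deposited, where 13.6% of all loci did, and 0 passed after centring. At an unadjusted p under 0.05 after centring, 6 of the 9 were higher and 1 lower, where 1555 and 1066 of 15474 loci were. The microglia marker Tmem119 was at 10.89 to 13.85 TPM in PLM and 16.9 to 17.52 TPM in SNI, and its PLM libraries stayed below SNI after centring. At an unadjusted p under 0.05 as deposited, 3 of 4 blood genes and 1 of 10 oligodendrocyte markers were higher, where 198 of 15474 loci were, and 1 of 10 oligodendrocyte, 4 of 7 precursor and 3 of 9 spinal neuron markers were lower, where 35.8% of all loci were. The part of any of these markers in the Grin2c result, or in the values of the other subunit genes, was not tested.

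Likeness to Grin2c was also measured over all named loci. Over the 13952 named loci that averaged 1 TPM or more, Pearson's r with Grin2c was computed on median-centred log2(TPM + 1) over the 9 libraries, as a description, since the points share the same libraries and the same centring. The 8 highest were Kcnj16, an inward rectifier potassium channel gene (r = 0.993), Fads2, a fatty acid desaturase gene (0.988), Fgfr3, a fibroblast growth factor receptor gene (0.986), Bcan, which encodes brevican (0.985), Serpine2, a serine protease inhibitor gene (0.985), Tril (0.985), the receptor gene Gpr37l1 (0.984) and Slc4a4, a sodium bicarbonate cotransporter gene (0.983). Fgfr3 and Slc4a4 were among the 12 astrocyte markers. Spearman's rho for the 8 was from 0.917 to 1 and r over the 6 JA and SNI libraries alone was from 0.947 to 0.989, which is partly set by the choice, since these 6 are among the 9 libraries used to rank them. All 12 astrocyte markers had a positive r, from 0.506 for Sox9 to 0.986 for Fgfr3, with a median of 0.960, and over the 6 JA and SNI libraries they ran from 0.519 to 0.989 with a median of 0.892. The 12 neuronal markers ran from -0.618 to 0.158 over the 9 libraries, and from -0.56 to 0.793 with a median of 0.273 over the 6 JA and SNI libraries. The mean of the neuronal markers had r = -0.13 over 9 and 0.552 over 6 libraries, and the mean of the astrocyte markers 0.984 and 0.947.

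None of the other subunit genes was among these 8 loci. Grin2d had r = 0.534, Grin3a 0.512, Grin1 0.326, Gria1 0.206, Gria3 0.145, Gria2 -0.01 and Gria4 -0.25 over the same 9 libraries. Over the 6 JA and SNI libraries these values ran from 0.170 to 0.735.

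**Figure D4:**
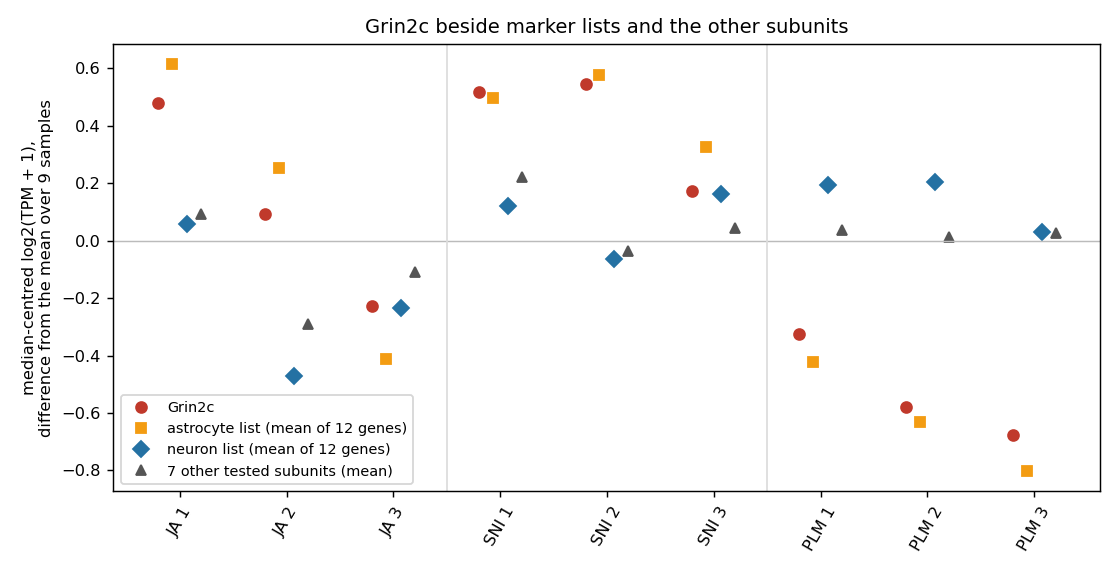
Median-centred log2(TPM + 1) in each library (horizontal axis, group and replicate), drawn as the difference from the mean over the 9 libraries, for Grin2c, the mean of 12 astrocyte markers, the mean of 12 neuronal markers and the mean of the 7 other tested subunit genes. Grin2c and the astrocyte markers take similar positions across the libraries (r = 0.984 over 9 libraries), and both are lowest in the 3 PLM libraries, with JA replicate 3 next.

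The start regions of Grin2c and Grin1 are shown because Grin2c was the subunit gene that passed and Grin1 was the most abundant of the 10. They are RefSeq promoters on the GRCr8 rat assembly, 250 bases before to 50 bases after the gene start, on the minus strand at chr10:101005089-101005388 for Grin2c and chr3:28528705-28529004 for Grin1, written 5′ to 3′ with CpG dinucleotides in capitals. Of the 10 genes, 5 were matched in this set, the others being Grin2d, Grin3a and Gria4. The entries of Gria1, Gria2, Gria3, Grin2a and Grin2b were not matched.
Grin2c: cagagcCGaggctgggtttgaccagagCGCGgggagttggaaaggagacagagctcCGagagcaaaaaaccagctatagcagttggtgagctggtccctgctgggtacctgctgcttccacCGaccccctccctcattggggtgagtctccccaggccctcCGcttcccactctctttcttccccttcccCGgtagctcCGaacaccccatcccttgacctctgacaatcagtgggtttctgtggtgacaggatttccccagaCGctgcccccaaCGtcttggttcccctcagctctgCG
Grin1: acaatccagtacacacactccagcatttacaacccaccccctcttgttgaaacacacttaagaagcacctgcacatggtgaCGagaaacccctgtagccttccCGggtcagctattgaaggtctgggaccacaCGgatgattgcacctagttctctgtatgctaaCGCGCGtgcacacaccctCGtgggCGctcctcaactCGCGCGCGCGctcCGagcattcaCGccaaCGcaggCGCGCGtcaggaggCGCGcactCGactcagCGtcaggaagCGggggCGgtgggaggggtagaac
The Grin2c window holds 11 CpG, and 39.03% of the 33469 promoters of this length hold at least as many. The Grin1 window holds 25 CpG, and 16.6% hold at least as many. The GC box letters GGGCGG, searched on both strands, occur 0 times in the Grin2c window and 1 time in the Grin1 window, and 33.1% of all promoters hold them. A match of letters is a description only, and no binding or methylation was measured here.

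Other genes of glutamate receptor signalling were counted by list. Of 8 further ionotropic subunit genes (the kainate, delta and GluN3B genes), 1 passed as lower in PLM against SNI by limma, Grik4, a kainate receptor subunit gene, at -0.39 (adjusted p = 0.0404), and the median was -0.35 against -0.21 over all loci. Of 20 genes for AMPA receptor auxiliary, assembly and modifying proteins, 18 were tested and 4 passed as lower by limma, with a median of -0.31. These were Abhd6, a lipase gene whose product also limits AMPA receptor delivery (-0.44, adjusted p = 0.0146), Cacng4, a transmembrane AMPA receptor regulatory protein gene (-0.36, adjusted p = 0.0400), Frrs1l, an assembly factor gene (-0.38, adjusted p = 0.0466), and Porcn (-0.31, adjusted p = 0.0494). Of 24 scaffold and partner genes, 23 were tested, with a median of -0.23. The calls in these lists again compare with 13.6% of all loci.

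After median-centring none of these named genes passed by limma, with values from -0.20 for Abhd6 to -0.06 for Porcn, and the centred medians of the 3 lists were -0.11, -0.06 and 0.02. At an unadjusted p under 0.05 after centring, 1 gene of the auxiliary list was lower and 1 higher, with 0 in the other lists, against 6.89% of all loci lower and 1555 of the 15474 loci higher. In SNI against JA and in PLM against JA 0 genes of the 3 lists passed by limma. At an unadjusted p under 0.05 as deposited, 1 further subunit, 1 auxiliary and 2 scaffold genes were higher in SNI than in JA, against 6.11% of all loci, and 1 gene of each list was lower in PLM than in JA, against 10.5% of all loci. The further subunit gene higher in SNI was Grin3b, singled out after its values were seen, which encodes a GluN3 subunit known from motor neurons. Grin3b was at 5.37, 1.92 and 2.15 TPM in JA, at 6.62, 5.30 and 6.72 TPM in SNI and at 4.69, 4.85 and 4.13 TPM in PLM, with a log2 fold change of 0.89 in SNI against JA (unadjusted p = 0.0230, adjusted p = 0.614 by limma). JA replicate 1 overlapped the SNI libraries for this gene. Chat, a motor neuron marker, was at 1.25 to 5.36 TPM in JA and 3.93 to 8.01 TPM in SNI, and its part in the Grin3b values was not tested.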

How the data were processed

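RNA was extracted from ipsilateral L3-L6 cord and sequenced by the authors, who trimmed reads with fastp 0.19.5, mapped them with HISAT2 2.0 and estimated expression with StringTie 1.3.3b. The submitters' processing notes name GRCh38.p13, a human assembly, while the identifiers are rat Ensembl genes, so the build used is unclear and no coordinates are taken from the table. The authors deposited 1 table of values that are read here as TPM, since each library sums to about 1000000 TPM, with 2 decimals. Depth is unknown, and count tests could not be used. Of 34890 loci, 32850 have a name.

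Groups were compared in pairs on log2(TPM + 1) with limma 3.58.1 (R 4.3.3; variance trend), for loci averaging 1 TPM or more across the 6 libraries fitted, with p adjusted over all of them. Fold changes are on this scale, which understates the change of low genes. A gene passed at an adjusted p under 0.05. The p values measure the spread between rats of 1 experiment. All 10 subunit genes are named, at most 4 passing genes of each other list, and the 8 loci most like Grin2c. The members and lists were chosen with earlier results of these data known. The gene names Gsg1l, Shisa9 and Pecam1 were not matched. Alternatives were other scalings, filters, pseudocounts, designs and leaving out each library, of which the unfiltered centred fit was chosen after seeing the data. The fit was also run on simulated data. These held no shift between whole libraries, so that run cannot tell which scaling to prefer. Some results of these lists are not reported here.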

Additional observations from a re-analysis of the deposited data

How the results depend on the processing

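Grin2c kept its negative sign in PLM against SNI under all 23 alternatives, from -1.42 to -0.87, and lost its call under 11 of them, 5 that rescale or centre the libraries and 6 that also leave out 1 library. Its adjusted p by limma was 0.0560 after median-centring, 0.0517 after quantile normalization, 0.0905 with centring on neuronal markers, 0.120 with the replicate block and centring and 0.0800 without a filter and centred, and ran from 0.0110 to 0.0455 when each library was left out as deposited and from 0.0674 to 0.184 when this was done on centred values. It passed when TPM was rescaled without mitochondrial genes (adjusted p = 0.0271 by limma) and with the replicate block (0.0330). The number of subunit genes passing as lower was therefore 0 under the 5 alternatives named first, and was 0 to 2 when a library was left out. The cause was not tested.

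Counts over all loci depended on scaling. In PLM against SNI, 2110 lower and 38 higher loci became 106 and 20 after median-centring, 132 and 23 after quantile normalization, 267 and 16 without mitochondrial genes, 55 and 4 with centring on neuronal markers, 1237 and 21 without a filter, 61 and 9 without a filter and centred, 478 and 8 in a fit to all 9 libraries, and 220 lower at the thresholds of the study's methods. When each library was left out, as deposited or centred, the counts were 0 to 1456 lower and 0 to 38 higher, with 264 lower as deposited without PLM replicate 2. In SNI against JA, where 0 passed by limma (154 lower and 950 higher at an unadjusted p under 0.05), the thresholds of the study's methods gave 30 lower and 77 higher, 1 was higher without a filter, and leaving out a library gave 0 to 3 lower and 0 to 6 higher. In PLM against JA, 2 lower and 1 higher became 1 lower with centring on neuronal markers, without a filter, and in the fit to all 9 libraries, 0 higher in these fits and after median-centring or quantile normalization, 2 higher with a pseudocount of 0.1, and 101 lower and 43 higher at the thresholds of the study's methods, with 0 to 21 lower and 0 to 4 higher when a library was left out.

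Across loci, r of the deviations of samples with the same replicate number was from -0.046 to 0.126 over 9 pairs, with JA and SNI replicates 1 (0.126) and JA and PLM replicates 3 (0.104) above 0.1, and from -0.19 to 0.136 over the 18 pairs with different numbers, so the numbers were not taken to pair the rats. The replicate block gave 151 lower and 1 higher in PLM against SNI, 0 and 0 when centred, and in PLM against JA 1 lower and 0 higher, or 0 and 0 when centred. In SNI against JA it gave 0 loci by limma (230 lower and 1748 higher at an unadjusted p under 0.05), and 6 of the 8 subunit genes then had an unadjusted p under 0.05 and were higher, Grin1, Gria2, Gria3, Gria4, Grin2c and Grin3a, with p values adjusted over all loci of 0.390 to 0.546 for the 8 genes. When centred, 2 of the 8 had an unadjusted p under 0.05 and were higher, where 570 of 15557 loci were.

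Small fold changes that did not pass changed sign with scaling. In PLM against SNI, Gria2 moved to 0.0016 after centring, with or without the replicate block, and Gria4 to 0.092 after centring in both designs, 0.055 by quantiles, 0.025 on neuronal markers and 0.075 centred without a filter. In SNI against JA, centring on neuronal markers gave -0.23 for Gria1, -0.084 for Gria2, -0.036 for Gria4, -0.084 for Grin1, -0.24 for Grin2d and -0.11 for Grin3a, beside a median of -0.30 over all loci. Grin2b was at -0.027 when centred without a filter. In PLM against JA, centring on neuronal markers gave -0.15 for Gria2, -0.11 for Gria3 and -0.012 for Gria4, beside a median of -0.33 over all loci. Grin1 in PLM against JA was at 0.086 after centring in both designs, 0.040 by quantiles, 0.019 without mitochondrial genes and 0.079 centred without a filter, and Grin3a at 0.053 after centring in both designs, 0.047 by quantiles and 0.046 centred without a filter. Leaving out each library, as deposited or centred, gave ranges in PLM against SNI of -0.42 to 0.054 for Gria1, -0.32 to 0.050 for Gria2, -0.37 to 0.029 for Gria3 and -0.21 to 0.13 for Gria4. In SNI against JA the ranges were -0.058 to 0.29 for Gria1 and -0.023 to 0.30 for Grin2d. In PLM against JA they were -0.20 to 0.041 for Gria1, -0.038 to 0.30 for Gria2, -0.027 to 0.39 for Gria3, -0.15 to 0.22 for Grin1, -0.29 to 0.031 for Grin2d and -0.16 to 0.13 for Grin3a. The cause was not tested.

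Adding 1 TPM to every gene raised the shares of the low genes and lowered that of Grin2c in each group. Grin2c then made up 45.0%, 49.7% and 34.5% of GluN2 TPM in JA, SNI and PLM, Grin2d 35.1% in JA and 40.6% in PLM, Grin2a 10.3%, 9.21% and 11.7%, and Grin2b 9.62%, 8.36% and 13.2%. Gria2 took 16.9% of AMPA receptor TPM in JA and Gria4 50.6% in PLM, and the Grin1 to GluN2 ratio was 3.94, 4.08 and 4.99. Relative to astrocyte markers with a pseudocount of 0.1, Grin2c differed by -0.033 between PLM and SNI and by 0.033 between SNI and JA. Leaving out each library, the SNI and JA difference of Grin2c ran from -0.15 to 0.17 against neuronal markers and from -0.077 to 0.093 against astrocyte markers. Depth is unknown, so counting error could not be weighed for Grin2a and Grin2b, the genes under 1 TPM.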
